A study of Arabidopsis thaliana with 7 samples.

Results

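The plastid genome of Arabidopsis thaliana carries 4 genes for subunits of a bacterial-type RNA polymerase, rpoA, rpoB, rpoC1 and rpoC2, and all 4 were measured in developing seeds. The rule takes probe sets annotated to exactly 1 plastid-encoded gene with one of these names and uses no measured value, though this group of genes was picked for description with earlier results of these data known. It gave 1 probe set for each gene, or 4 of the 22746 probe sets tested. They belong to 69 probe sets that name exactly 1 plastid-encoded gene. Seeds came from wild-type plants of the Col accession (4 arrays) and from plants with the myb5-1 allele (3 arrays), which were grown on soil at the same time under constant light. The seeds were collected between the globular and walking-stick stages of the embryo and freed from the siliques, so each RNA sample mixed embryo, endosperm and seed coat. MYB5, a transcription factor of the MYB family, acts in the seed coat, and myb5-1 is the single mutant allele studied. Plant ages, and whether seeds of several plants were pooled for a sample, are not given in the sources used here.

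Plastid genes are read by 2 kinds of RNA polymerase. The plastid-encoded polymerase, often called PEP, has a core like that of bacteria, built from the rpo gene products, and needs nuclear-encoded sigma factors to find its promoters. Phage-type polymerases encoded in the nucleus read other plastid promoters, among them the one in front of the rpoB, rpoC1 and rpoC2 genes, so the plastid-encoded enzyme depends on the nuclear one for its own subunits. In plants the plastid-encoded polymerase is known above all for reading photosynthesis genes, and seeds of Arabidopsis hold green plastids for part of their development. No sequence of these genes is printed, since the tables used here hold none.

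All values are deposited intensities in arbitrary units, 1 per probe set and array, or log2 differences of myb5 minus wild type after quantile normalization of log2(intensity + 16). An added constant of 16 shrinks the differences of dim probe sets. The brightness of 1 probe set does not measure its RNA against that of another, so the difference of each gene was taken with itself across arrays. Sums of marker intensities below are governed by their brightest probe sets. A gene called the brightest of a list had the highest intensity, which gives no amount of RNA. RNA was amplified from an oligo(dT) primer, which favours polyadenylated RNA. Most plastid transcripts lack a long poly(A) tail, so the intensities follow the share of rpo RNA that was primed, and fewer plastids and less rpo RNA per plastid cannot be told apart. On the first principal component (56.8% of the variance) myb5 replicate 1 lay with wild-type replicates 1 and 2, apart from the other 4 arrays. Across probe sets, arrays of the same set correlated at 0.974 to 0.985 and arrays of different sets at 0.933 to 0.963. The sets cut across genotype, with 2 of the 4 wild-type arrays and 1 of the 3 myb5 arrays in the smaller set, and each rpo gene is given below with and without them.

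rpoA encodes the alpha subunit, on which the core enzyme assembles in bacteria. Its intensities were 1514, 1408, 2525 and 2092 in wild-type replicates 1 to 4, and 2625, 4135 and 3009 in myb5 replicates 1 to 3. Every myb5 array lay above every wild-type array, but only just, since myb5 replicate 1 and wild-type replicate 3 were nearly equal. On the normalized log2 scale that gap was 0.06, and it was 0.0077 after centring each array on its median instead. Wild type averaged 1885 ± 522 (SD, n = 4) and myb5 3256 ± 785 (SD, n = 3). On the log2 scale myb5 was higher by 0.83 (standard error 0.26), which is 1.78-fold, with a 95% confidence interval of 1.18-fold to 2.69-fold. It did not pass the threshold over all probe sets (limma adjusted p = 1.00, unadjusted p = 0.013). Of the 4 rpo genes, rpoA alone had an unadjusted p under 0.05 and was higher in myb5, against 1.80% of all probe sets. It was also alone in having genotypes that did not overlap with myb5 higher, against 2.18% of all probe sets. No rpo gene had genotypes that did not overlap with myb5 lower, against 2.17%.

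rpoC1 and rpoC2 encode the parts of the beta prime subunit, which in most bacteria is a single protein and carries part of the catalytic centre. The intensities of rpoC1 were 277, 425, 490 and 295 in wild-type replicates 1 to 4, and 310, 499 and 597 in myb5 replicates 1 to 3. The genotypes overlapped widely: myb5 replicate 1 lay among the lowest wild-type arrays, and wild-type replicate 3 almost matched myb5 replicate 2. Wild type averaged 372 ± 103 (SD, n = 4) and myb5 468 ± 146 (SD, n = 3). Its log2 difference was 0.33, with a 95% confidence interval from -0.33 to 0.99 (limma adjusted p = 1.00), less than the log2 SD of 0.39 within wild type.

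The intensities of rpoC2 were 134, 85.8, 188 and 145 in wild-type replicates 1 to 4, and 102, 223 and 193 in myb5 replicates 1 to 3. Wild-type replicate 2 and myb5 replicate 1 were the lowest arrays, and myb5 replicate 2 was the highest. Wild type averaged 138 ± 41.8 (SD, n = 4) and myb5 172 ± 63.1 (SD, n = 3). Its log2 difference was 0.24, with a 95% confidence interval from -0.43 to 0.92 (limma adjusted p = 1.00), again less than the log2 SD of 0.37 within wild type. For rpoC1 and rpoC2 these intervals still hold changes of up to 1.98-fold and 1.90-fold higher in myb5, and values as low as 0.793-fold and 0.74-fold, so neither a rise nor a fall is shown.

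rpoB encodes the beta subunit, which in bacteria forms the catalytic centre together with beta prime and is the target of rifampicin. Its probe set was dim, with intensities of 17.3, 9.08, 15.4 and 14.7 in wild-type replicates 1 to 4, and 3.52, 14.3 and 18.0 in myb5 replicates 1 to 3. It lay below the added constant of 16 on 5 of the 7 arrays, and between 29.2% and 32.4% of all probe sets on an array did so. With no detection call, it cannot be said whether the rpoB probe set measured a transcript at all. Wild type averaged 14.1 ± 3.52 (SD, n = 4) and myb5 11.9 ± 7.52 (SD, n = 3), and the genotypes overlapped. The log2 difference was -0.21, with a 95% confidence interval from -0.69 to 0.27 (limma adjusted p = 1.00). It rested on myb5 replicate 1, the lowest of the 7 arrays: without that array the log2 difference was 0.01.

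**Figure D1:**
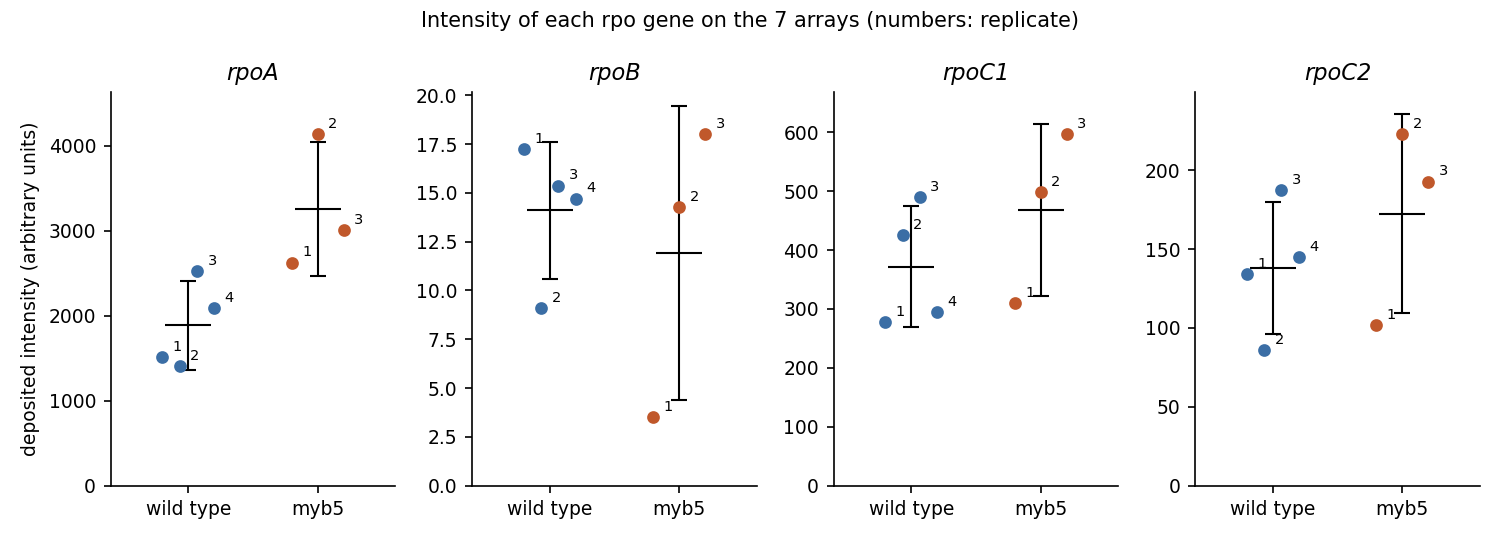
Deposited intensity (vertical axis, arbitrary units, a scale of its own for each gene) of rpoA, rpoB, rpoC1 and rpoC2 on the 4 wild-type and 3 myb5 arrays. Points are arrays with their replicate number, and bars are the mean ± SD. The myb5 arrays lie above all wild-type arrays for rpoA, from 2625 upward against at most 2525, and the genotypes overlap for the other genes.

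Across the 4 rpo genes, 0 passed the threshold in either direction, against 0.00440% of all probe sets. Their log2 differences ran from -0.21 to 0.83 with a median of 0.29, and 3 of 4 were above 0. Over all 22746 probe sets the median log2 difference was -0.00035, and 49.9% were above 0. Over the 65 other plastid-encoded genes the median was 0.19, and 49 (75.4%) were above 0, close to the share among the rpo genes. Of those 65 genes, 0 passed in the limma fit, 15 had an unadjusted p under 0.05 (3.46% of all probe sets did), 11 (16.9%) had no overlap with myb5 higher (2.18% of all probe sets) and 0 had no overlap with myb5 lower (2.17% of all probe sets). Plastid genes of 1 array share their plastids and their amplification, so these counts are not independent of each other.

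The rpo genes also differed between the sets of arrays named above, and those sets were read from the data, so the following values carry no test. The intensity of rpoC2 was 85.8 to 134 in the smaller set and 145 to 223 in the larger one, while its genotypes overlapped. The sets were parted only just, at 7.25 in wild-type replicate 1 and 7.31 in wild-type replicate 4 on the normalized log2 scale. How many of all probe sets part in this way was not counted. The mean normalized log2 level in the larger set minus that in the smaller one was 0.67 for rpoC2, 0.72 for rpoA, 0.43 for rpoC1 and 0.31 for rpoB. For rpoA and rpoC1 the ranges of the sets overlapped, at 1408 to 2625 against 2092 to 4135 for rpoA and 277 to 425 against 295 to 597 for rpoC1. Within wild type alone, replicates 3 and 4 were above replicates 1 and 2 by 0.69 for rpoA, 0.48 for rpoC2, 0.14 for rpoB and 0.11 for rpoC1 on the log2 scale. Within myb5, replicates 2 and 3 were above replicate 1 by 0.89 for rpoC2, 0.80 for rpoC1, 0.67 for rpoB and 0.46 for rpoA.

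The log2 difference of rpoA between genotypes was present within both sets. It was 0.64 between the means of myb5 replicates 2 and 3 and wild-type replicates 3 and 4, and 0.87 between myb5 replicate 1 and the mean of wild-type replicates 1 and 2. With a term for the set in the fit it was 0.73 (standard error 0.14) and did not pass, and since that term was read from the data its p is not used. rpoC1 and rpoC2 changed sign between the sets, at 0.54 and 0.30 in the larger set and -0.15 and -0.11 in the smaller one. rpoB had -0.06 and -0.59. No test of the difference between the sets was run, since the smaller set holds a single myb5 array.

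Some markers of seed parts moved along the same sets. The 2 measured embryo maturation markers of 10 listed are PAP85, a vicilin-like storage protein gene, and OLEO3, an oleosin gene, and their summed intensity was 5075 to 7343 in the smaller set against 628 to 1485 in the larger set. The 4 measured seed coat markers of 8 listed (BAN, DFR, SBT1.7 and TT15) summed to 9665 to 10918 in the smaller set and 16470 to 18544 in the larger set. TT15, the dimmest of these 4, overlapped between the sets, at 193 to 223 against 216 to 257. The 2 measured markers of fruit wall and green tissue of 9 listed moved in opposite directions: RCA, for Rubisco activase, had intensities of 473 to 573 in the smaller set and 145 to 249 in the larger set, and ALC, a regulator of fruit opening, had 49.3 to 70.9 and 78.1 to 120. Their sum was 544 to 622 in the smaller set and 262 to 365 in the larger set. The 2 measured endosperm markers of 8 listed, IKU2 and AGL62, stayed below 21.1 in sum on every array. Between the genotypes these sums overlapped for all 4 marker lists, for the seed coat from 9665 to 18544 across wild type and from 10105 to 17378 across myb5. No measured marker was at 0. The part of these tissues in the rpo values was not tested.

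The genes on either side of rpoA give its surroundings on the plastid chromosome. rpoA lies at the end of a run of ribosomal protein genes and next to a run of psb and pet genes for photosystem II and the cytochrome b6f complex, and 12 of the 16 listed genes around it were measured. Of these, 0 passed the threshold in the limma fit, 6 had an unadjusted p under 0.05, 11 had a log2 difference above 0, 5 had no overlap with myb5 higher, and the median log2 difference was 0.44. Over all probe sets the shares were 3.46% for an unadjusted p under 0.05, 49.9% above 0 and 2.18% without overlap and higher in myb5. The division of the list into its functions was made after values had been seen. The 6 measured ribosomal protein genes had a median log2 difference of 0.68, with 6 above 0 and 5 without overlap, and the 6 psb and pet genes had a median of 0.20, with 5 above 0 and 0 without overlap.

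rpl22, for a protein of the large ribosomal subunit, had intensities of 433, 279, 495 and 419 in wild-type replicates 1 to 4, and 660, 1040 and 674 in myb5 replicates 1 to 3. As with rpoA, wild-type replicate 2 was lowest, myb5 replicate 2 was highest and the genotypes did not overlap. The log2 differences were 0.95 for rpl22, 0.71 for rps3, 0.70 for rpl36, 0.67 for rpl16, 0.62 for rpl14 and 0.43 for rps19 (limma adjusted p = 1.00 for each), where rps3 and rps19 encode proteins of the small ribosomal subunit and rpl genes those of the large one. All of these except rpl36 had genotypes that did not overlap. On the other side of rpoA, petD, for a subunit of the cytochrome b6f complex, is the nearest measured gene. Its intensities were 30.1, 29.8, 21.2 and 18.6 in wild type and 20.5, 22.9 and 29.0 in myb5, a log2 difference of -0.10. petB, for cytochrome b6 and the brightest gene of this list, had a log2 difference of 0.19 (limma adjusted p = 1.00). All 15 measured plastid ribosomal protein genes, wherever they lie, had log2 differences above 0, with a median of 0.66. This group was formed by gene name and includes the 6 neighbours of rpoA just given, so it is not a separate set. Of the 65 plastid-encoded genes other than rpo, which include these 15, 75.4% were above 0. Of these 15 genes, 9 had an unadjusted limma p under 0.05 and 8 (53.3%) had no overlap with myb5 higher, against 3.46% and 2.18% of all probe sets. rpoA at 0.83 thus lay within their range of 0.17 to 0.95. So did rpoC1 at 0.33 and rpoC2 at 0.24, both below their median, while rpoB at -0.21 lay below the range.

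rpoC2, rpoC1 and rpoB follow each other on the plastid chromosome, between rps2 and a run of atp genes for the ATP synthase on one side and petN and psbM on the other. All 7 listed neighbours were measured, 0 passed in the limma fit, 1 (rps2) had an unadjusted p under 0.05 against 3.46% of all probe sets, 4 had a log2 difference above 0, and their median log2 difference was 0.10. rps2, next to rpoC2 and for a small ribosomal subunit protein, had intensities of 217, 154, 202 and 216 in wild type and 224, 294 and 308 in myb5. Its genotypes did not overlap, though myb5 replicate 1 was close to 2 of the wild-type arrays, and its log2 difference was 0.44 (limma adjusted p = 1.00). atpF, for a subunit of the membrane part of the ATP synthase, had a log2 difference of 0.44, and psbM, for a small subunit of photosystem II and the brightest of these genes, had -0.40. With all arrays and no further term, the interval of neither excluded 0. This depended on the fit: psbM had -0.68 with the replicate block (95% confidence interval -1.11 to -0.25), and atpF had 0.57 with a term for the set of arrays (0.10 to 1.03) and 0.77 in the larger set alone (0.09 to 1.45). The sets were read from the data, so these 2 intervals of atpF carry no test. Neither gene passed the adjusted threshold in any of these fits.

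**Figure D2:**
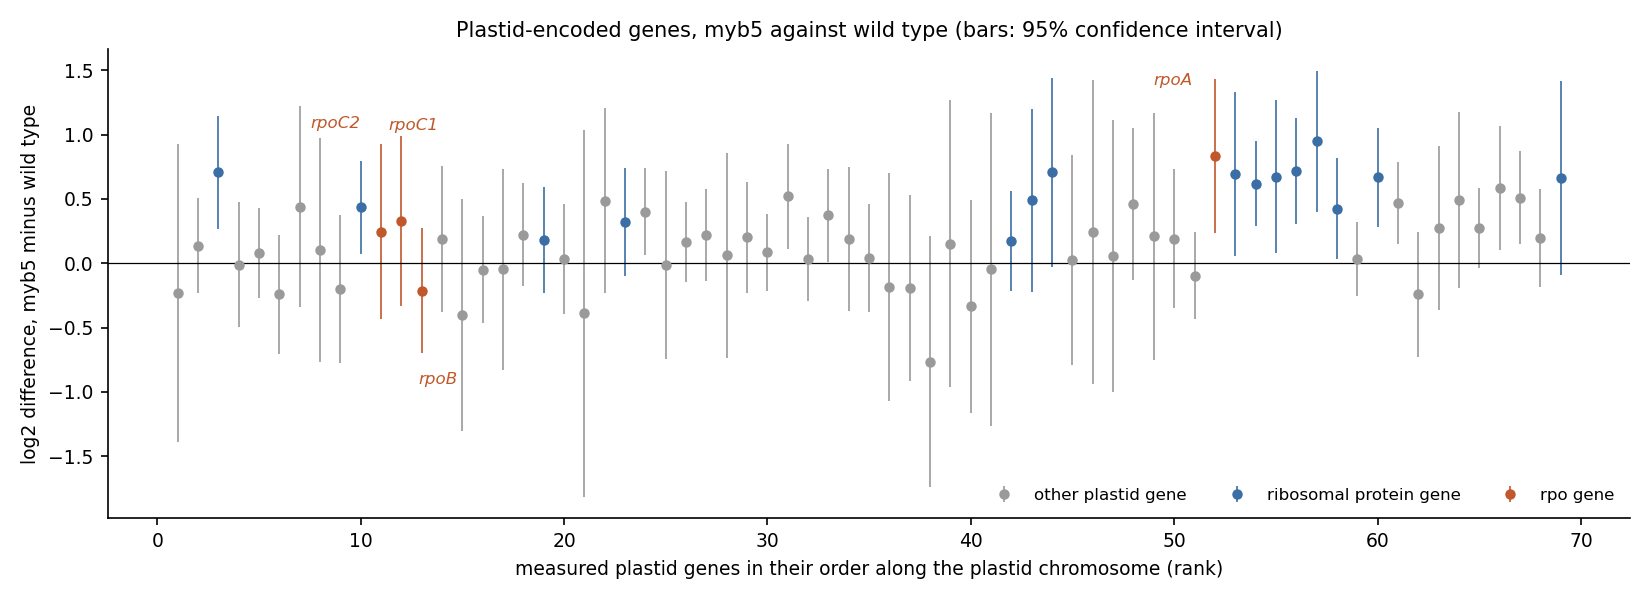
Log2 difference of myb5 minus wild type (vertical axis) for the 69 measured plastid-encoded genes, in their order along the plastid chromosome (horizontal axis, rank). Bars are 95% confidence intervals without correction for the number of genes, and rpo genes are labelled. rpoA at 0.83 stands beside ribosomal protein genes with differences of 0.43 to 0.95 on one side. On its other side are petD at -0.10 and petB at 0.19. rpoC2, rpoC1 and rpoB lie at 0.24, 0.33 and -0.21.

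How alike the rpo genes were over the arrays is described here, and whether they share 1 profile was not tested. Profiles were compared as the root mean square difference of normalized log2 levels over 7 arrays, after each gene was centred on its own mean. Between rpo genes this distance was smallest for rpoB and rpoC2 (0.31), followed by rpoA and rpoC2 (0.35) and by rpoC1 and rpoC2 (0.36), and largest for rpoA and rpoB (0.59). On this scale the SD over the 7 arrays was 0.57 for rpoA, 0.43 for rpoC1, 0.42 for rpoC2 and 0.29 for rpoB. A profile with a small SD lies close to many others. The added constant of 16 shrinks the differences of the dim rpoB, so its small SD does not show a steady level. As deposited, its highest array was 5.12-fold its lowest, against 2.94-fold for rpoA, 2.60-fold for rpoC2 and 2.15-fold for rpoC1. Against 8726 other probe sets naming 1 gene with a mean intensity of at least 16, rpoC2 ranked 356 in closeness to rpoA, and rpoC1 ranked 1980. The reverse ranks were farther, with rpoA at 2517 as seen from rpoC2 and at 4808 as seen from rpoC1. rpoC2 ranked 2165 as seen from rpoC1, and rpoC1 ranked 2938 as seen from rpoC2. As seen from the dim rpoB, with 8727 candidates, rpoC2 ranked only 3179, rpoC1 6719 and rpoA 7961. By Pearson correlation over the 7 arrays, rpoA and rpoC2 were the most alike (0.75), ahead of rpoB and rpoC2 (0.62). The other pairs had 0.58 (rpoC1 and rpoC2), 0.55 (rpoA and rpoC1), 0.19 (rpoB and rpoC1) and -0.01 (rpoA and rpoB). Distances and correlations of rpoB come from a probe set that may not measure a transcript.

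The 5 genes nearest to rpoA were AT3G54200 (0.13), AT3G51950 (0.17), ccb452 (0.17), AT5G41350 (0.18) and rpl16 (0.18), the last of them a ribosomal protein gene of the run that ends at rpoA. ccb452 is the name in the annotation of the array and was not found in the gene table. Of the 100 probe sets nearest to rpoA, 6 named a plastid-encoded gene, against 66 of the 8726 candidates (0.756%). For rpoB, rpoC1 and rpoC2 the number among the nearest 100 was 0. The nearest genes to rpoB were AT3G28760 (0.06), VPS60.1 (0.09), AT1G77610 (0.09), AT5G42690 (0.09) and AT1G66660 (0.11). Those to rpoC1 were AT5G46850, AT4G20800, AT1G61900, AT1G54020 and AT2G40570, at 0.12 to 0.15. Those to rpoC2 were AT5G06480, AT5G61520, CHR34, AT4G30330 and AT3G03150, at 0.12 to 0.13. These likenesses rest on 7 arrays that fall into sets, and every array contributes to both profiles.

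**Figure D3:**
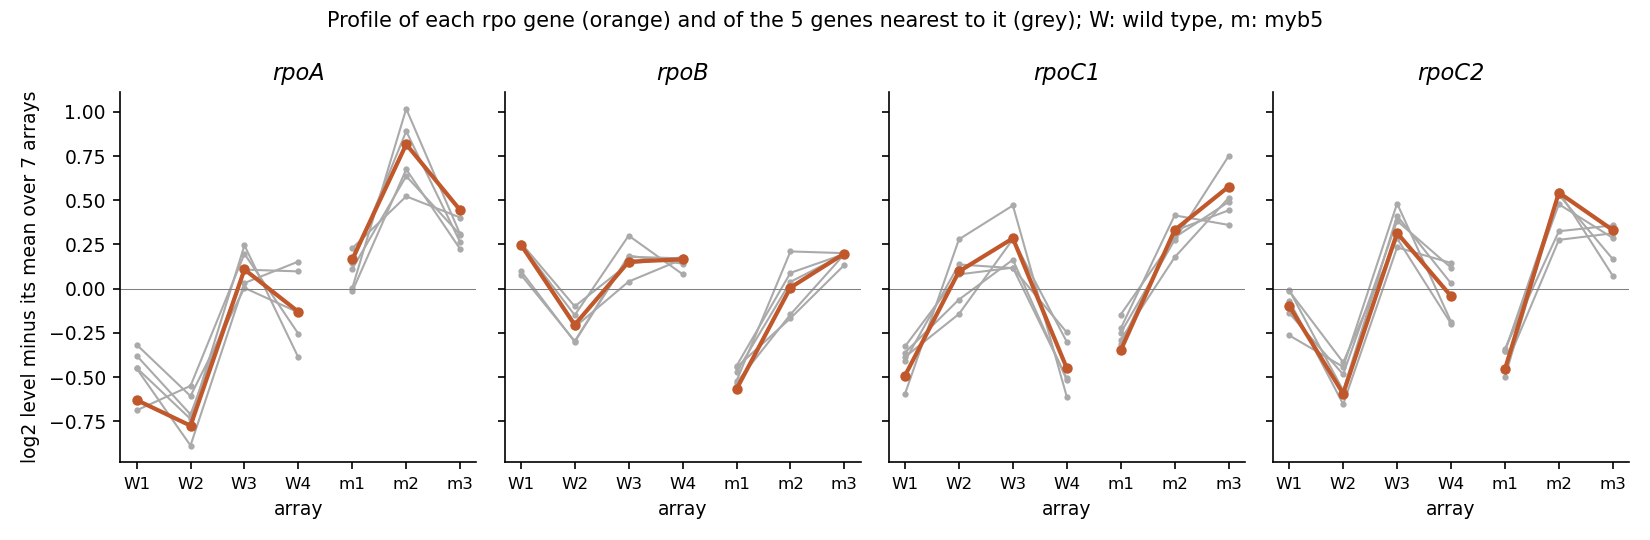
Normalized log2 level of each rpo gene (orange) and of the 5 genes nearest to it (grey) on the 4 wild-type (W) and 3 myb5 (m) arrays, as the difference from the gene's own mean over the 7 arrays. rpoA is lowest in wild-type replicate 2 and highest in myb5 replicate 2, while rpoB is lowest in myb5 replicate 1.

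The nuclear genes that serve plastid transcription were mostly not analysed here. Of 13 listed genes for proteins that bind the plastid-encoded polymerase and of 6 listed sigma factor genes, 0 had a probe set that named the gene and no other. Of 3 phage-type polymerase genes, RPOTmp was measured, whose product works in mitochondria and plastids. Its intensities were 24.0, 3.86, 11.3 and 31.7 in wild-type replicates 1 to 4, and 4.20, 20.1 and 19.9 in myb5 replicates 1 to 3. These values scattered around the added constant in both genotypes, and the log2 difference was -0.18 with a 95% confidence interval from -0.99 to 0.64 (limma adjusted p = 1.00). Of 22 other listed factors of plastid transcription and RNA processing, 2 were measured, 0 passed and 0 had an unadjusted limma p under 0.05. YS1, a pentatricopeptide repeat protein needed for editing of rpoB transcripts, had wild-type intensities of 8.97 to 20.0 and myb5 intensities of 3.41 to 19.8, and a log2 difference of -0.13. NCP (MRL7-L in the gene table), a nuclear gene known for a role in assembling the plastid-encoded polymerase, had wild-type intensities of 52.1 to 105 and myb5 intensities of 54.5 to 94.3, and a log2 difference of -0.09 (limma adjusted p = 1.00).

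Plastid genes were also listed by the polymerase that is thought to read them, from background knowledge of plastid promoters and not from these data. Of 49 listed genes read mainly by the plastid-encoded polymerase, most of them for photosynthesis, 48 were measured. In this list 0 passed in the limma fit, 6 had an unadjusted p under 0.05, 32 (66.7%) had a log2 difference above 0 and 3 had no overlap with myb5 higher, with a median of 0.12. Over all probe sets these shares were 3.46%, 49.9% and 2.18%. psbE, for a subunit of cytochrome b559, had the lowest log2 difference at -0.76. ndhI, of the NDH complex, and psaI, of photosystem I, had 0.59 and 0.52. psaB, for a core protein of photosystem I and the brightest of the list, had 0.03, and -0.06 after median centring (limma adjusted p = 1.00 for psbE, ndhI, psaI and psaB). Of 7 listed genes read mainly by the nuclear-encoded polymerases, 4 were measured. In this list 0 passed, 0 had an unadjusted limma p under 0.05 and 4 had a log2 difference above 0, with a median of 0.13. rps18 had 0.49, which rested on myb5 replicate 2, with 0.10 without that array and 0.78 without myb5 replicate 1. rpl33 had 0.17 and accD, for a subunit of acetyl-CoA carboxylase, had 0.09. The lists share genes with those around the rpo genes, and no test between them was made.

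**Figure D4:**
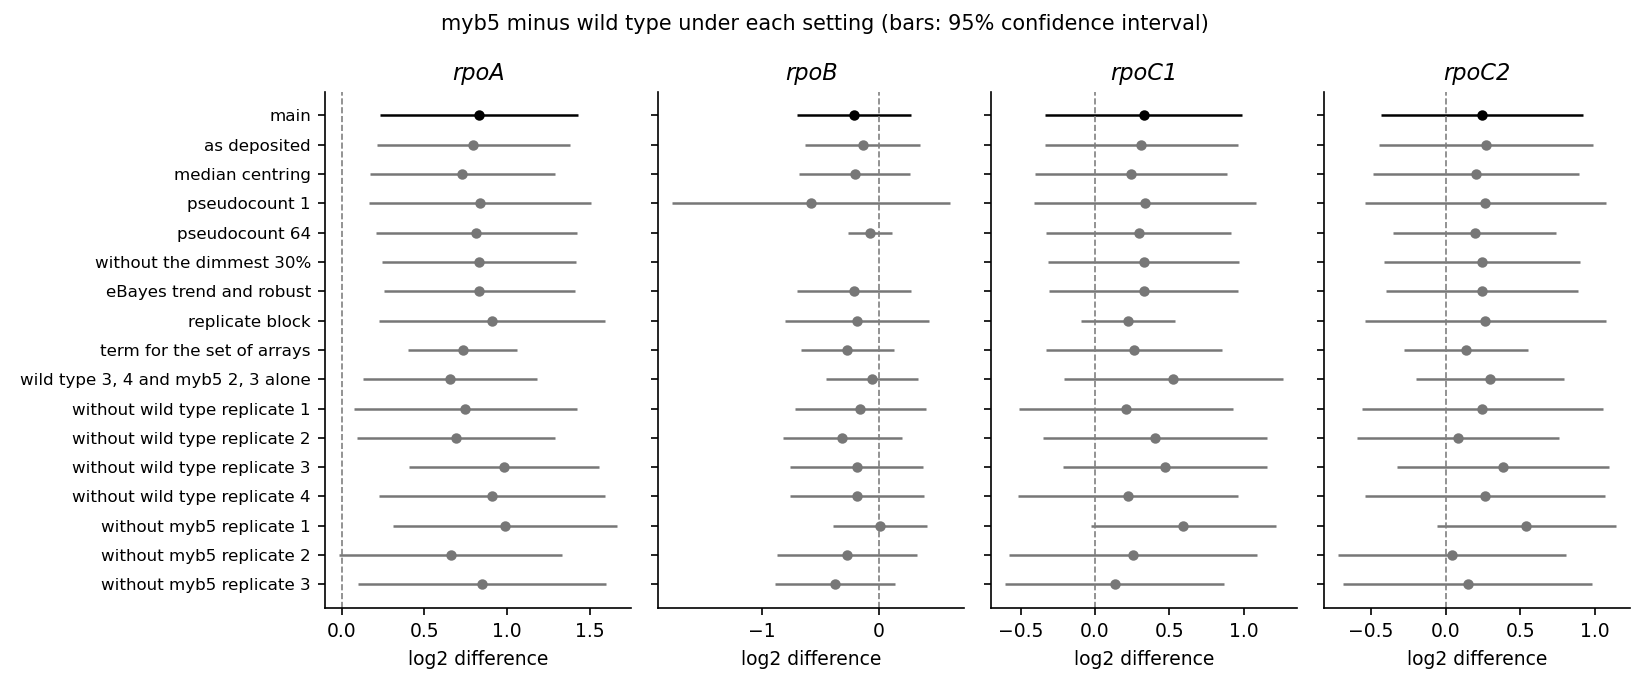
Log2 difference of myb5 minus wild type (horizontal axis, a scale of its own for each gene) for the 4 rpo genes under the main setting (black) and each alternative (grey), with 95% confidence intervals. rpoA stays between 0.66 and 0.99, and rpoB, which has no value without the dimmest 30% of probe sets, crosses 0 without myb5 replicate 1.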

How the data were processed

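Each array gave 1 value per Affymetrix probe set. The deposited values are linear intensities, and the sources used here do not name the authors' software. All 7 arrays had the same 2% trimmed mean, 150.01, so they had been scaled before deposit. The 64 control probe sets were left out. log2(intensity + 16) was quantile normalized, and limma (version 3.58.1, R 4.3.3) compared the genotypes over 22746 probe sets with lmFit and eBayes, Benjamini-Hochberg adjustment and a threshold of 0.05. The number of arrays limits precision. Per the series design text the samples are biological replicates.

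Gene names come from the array's annotation, updated through a gene table (TAIR10.1): 13513 probe sets named 1 gene, 13436 of them found in that table, 503 several, and 8730 are unnamed here. The table's coordinates served only for gene order.

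Members, lists and alternatives were chosen with earlier results of these data known. Named are all rpo genes; of each list those passing, or else the 3 largest differences and the brightest; and the 5 nearest profiles. petD, rpl14, rpl16 and rps19 were added after values had been seen.

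On simulated data for this comparison (22746 probe sets), log2 changes of 1, 2 and 4 were recovered for 43 of 67, 64 of 67 and 66 of 66 probe sets, with 12 false calls. The simulated noise was independent between probe sets and held no sets of arrays. Changes of all sizes were planted together, which makes the adjusted threshold easier to pass. These shares therefore do not give the chance of finding a change in the deposited data.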

Additional observations from a re-analysis of the deposited data

Results flagged for a closer look

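In 3 of 44 wild-type groups, 1 array lay far from the other 3, where chance gives about 1 in 20. On the normalized log2 scale, YS1 was at 5.19 in wild-type replicate 3, with the rest of wild type at 4.71 to 4.77. psaI was at 9.36 in wild-type replicate 3, against 8.89 to 8.91. AT1G77610, one of the genes nearest to rpoB in profile, was at 9.54 in wild-type replicate 2, against 9.94 to 10.02. No rpo gene had such an array, and groups of 3 arrays were not tested.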

How the results depend on the processing

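No rpo gene passed under any of the alternatives run, and the lowest limma adjusted p was 0.68, without myb5 replicate 1. The log2 difference of rpoA ran from 0.66 to 0.99 over 16 alternatives, with the same direction in each. Its unadjusted limma p ran from 0.0011 to 0.054. The lowest came from the term for the set of arrays, which was read from the data, so that p carries no test. Leaving out each array gave 0.66 to 0.99 for rpoA, -0.37 to 0.012 for rpoB, 0.13 to 0.59 for rpoC1 and 0.04 to 0.54 for rpoC2. rpoB turned to 0.012 without myb5 replicate 1, its log2 difference was -0.58 with a pseudocount of 1 and -0.07 with 64, and it gave no value without the dimmest 30% of probe sets. rpoC1 and rpoC2 were highest without myb5 replicate 1. Without myb5 replicate 3 rpoC1 fell to its lowest value, and without myb5 replicate 2 rpoC2 did.

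With the replicate block the log2 differences were 0.91 for rpoA, -0.19 for rpoB, 0.22 for rpoC1 and 0.27 for rpoC2. Deviations of same-numbered arrays correlated at 0.63, -0.30 and 0.55, so the numbers are not shown to pair the samples. The count of probe sets passing was 0 with the block and 0 in the larger set of arrays alone (replicates 3 and 4 of wild type, 2 and 3 of myb5), with 1362 and 1031 at an unadjusted limma p under 0.05, against 1 (788) with all arrays and 1 to 2 leaving out each array (2 without myb5 replicate 1). The larger set was read from the data, so its counts carry no test. Other values changed sign: RPOTmp to 0.025 and NCP to 0.0031 with the block, accD to -0.10 and petD to 0.13 among the 4 arrays alone, and psaB to -0.059 with median centring. Leaving out each array, the ranges were -0.42 to 0.088 for RPOTmp, -0.32 to 0.10 for YS1, -0.26 to 0.10 for NCP and -0.077 to 0.19 for psaB. The cause was not tested.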
